A study of Mus musculus with 21 samples.

Results

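The genes described here are 10 genes of the NF-κB pathway, the 5 subunits Rela, Rel, Nfkb1, Relb and Nfkb2, the kinase Map3k14, and the regulators Nfkbia, Nfkbie, Tnfaip3 and Traf1. They were taken by gene name from the 37734 genes of the files, and each name matched 1 gene. All 10 passed the filter on low values and were among the 14970 genes tested. Their levels were compared over 6 groups of sorted conventional dendritic cells (cDCs), and the canonical arm (Rela, Rel and Nfkb1) was set beside the non-canonical arm (Relb, Nfkb2 and Map3k14).

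NF-κB proteins bind DNA as pairs of subunits. In the canonical pathway, the IκB kinase complex marks the inhibitors encoded by Nfkbia and Nfkbie for destruction, and pairs made of RELA, c-REL and the p50 product of Nfkb1 enter the nucleus. In the non-canonical pathway, the kinase NIK, encoded by Map3k14, accumulates when TRAF3 and the cIAP proteins release it, and the Nfkb2 product p100 is cut to p52, which pairs with RELB. Several of these genes are themselves NF-κB targets, among them Nfkbia and Tnfaip3, whose products switch the pathway off. RELB and c-REL are known for their part in the maturation of dendritic cells.

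All cells came from C57BL/6 mice aged 6 to 8 weeks and carried no engineered allele, and each library was made from cells of pooled mice. CD11c+ cells were enriched with beads after enzymatic digestion and sorted as cDC1 (CD24+ CD11b-) or cDC2 (CD24- CD11b+), as immature (CCR7- Esam-) or mature (CCR7+ Esam+) cells. The 6 groups were immature cDC1 of the spleen (SP1Minus, 5 libraries), immature cDC1 of the thymus (TH1Minus, 4 libraries), mature cDC1 of the thymus (TH1Plus, 3 libraries), and the corresponding cDC2 groups SP2Minus, TH2Minus and TH2Plus with 3 libraries each. There was no mature splenic group. Splenic cDC1 libraries 4 and 5 had the same index and lane and agreed far more closely than any other pair of their group (chi-square per degree of freedom 2.53 against 26.9 or more), so they were averaged and counted as 1 sample, which left 20 samples. Below, values are listed in replicate order, with the mean of libraries 4 and 5 last for splenic cDC1, and splenic cDCs are immature throughout.

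Between 14266867 and 40119669 reads were recovered per library, and the lowest read count of any of the 10 genes in a library was 894, for Map3k14. The number that opens the library name repeats within 2 groups (3 of the splenic cDC1 libraries and 2 of the immature thymic cDC1 libraries share one), so the p-values measure the spread between these samples, which may in part be technical. Immature thymic cDC1 libraries 3 and 4, which share number, index and lane, differed as much as other pairs of their group (chi-square per degree of freedom 100.5 against 24.6 to 93.6) and were kept apart. Replicate 3 of splenic cDC1, immature thymic cDC1, mature cDC1 and mature cDC2 and replicate 2 of splenic cDC2 each stood apart from the rest of their group by this measure, and calls that change without them are given. Libraries of the 4 immature groups were spread over lanes 5 and 8, and all mature libraries were in lane 8. Ccr7, the sorting receptor, averaged 110227 and 99928 in mature cDC1 and cDC2 and at most 3783 in the 4 immature groups, as the labels say. The immature groups were not alike, with means of 434 and 714 in splenic and thymic cDC1 and 3783 and 3419 in splenic and thymic cDC2. By the rule for calls given below, Ccr7 was higher in cDC2 in both tissues. The part of this difference in the comparisons below was not tested. The summed level of 7 cDC1 markers was 95879 to 107613 in splenic and 99745 to 108152 in immature thymic cDC1, and at most 7713 in the immature cDC2 groups. In mature cells the subset markers drew together, with 43126 to 47600 in cDC1 and 16975 to 24397 in cDC2, and the cDC2 marker Itgam was at 0 in every mature cDC1 sample. Markers of B cells, NK cells and neutrophils summed to at most 984, 181 and 161 in any sample. In bulk samples, fewer cells of a type and less RNA per cell cannot be told apart.

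Since the levels below are those of genes that NF-κB can itself regulate, their promoters were searched for the κB consensus, the 10-base motif that NF-κB pairs bind. Both strands of RefSeq promoter windows were read (GRCm38.p6, 250 bases before to 50 bases after each start site). Windows were matched for 8 of the 10 genes, and Relb and Nfkb1 had no match. The motif was present for 5 of these 8 genes, Rel, Nfkb2, Nfkbia, Nfkbie and Tnfaip3, and in 7 of their 11 windows. Of all 32851 windows, 8.46% held it, and of all 27025 genes with a window, 9.55%. Rela, Map3k14 and Traf1 had no match in their windows. The stretches below show the match nearest to a start site for each gene, and for Nfkb2, which had matches in each of its windows, 3 of them. They are written 5′ to 3′ on the strand of the gene, and the capitals mark the motif, which runs over 11 bases where matches on both strands overlap.
Rel: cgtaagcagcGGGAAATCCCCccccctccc
Nfkb2, site 1: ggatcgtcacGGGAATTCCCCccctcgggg
Nfkb2, site 2: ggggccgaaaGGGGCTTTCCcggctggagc
Nfkb2, site 3: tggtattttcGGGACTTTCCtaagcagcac
Nfkbia: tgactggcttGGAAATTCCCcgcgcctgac
Nfkbie: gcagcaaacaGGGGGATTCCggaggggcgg
Tnfaip3: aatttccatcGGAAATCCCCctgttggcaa
The Rel stretch lies at chr11:23771042-23771071 (minus strand), outside the gene, and its first matched base is 92 bases before the start site. The first 2 Nfkb2 matches, in chr19:46304688-46304717 and chr19:46304716-46304745 (plus strand), begin 39 and 11 bases before a start site. The third, in chr19:46305695-46305724, begins 10 bases after another start site, and all 3 stretches overlap exons outside the coding sequence. The Nfkbia stretch, at chr12:55492657-55492686 (minus strand), begins its match 29 bases before the start site, outside the gene. The Nfkbie match, at chr17:45555584-45555613 (plus strand), begins 106 bases before the start site, also outside the gene. The Tnfaip3 match, at chr10:19015403-19015432 (minus strand), begins 12 bases before the start site, and the stretch overlaps an exon outside the coding sequence. A match is a run of letters and was not tested as a binding site.

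**Figure D1:**
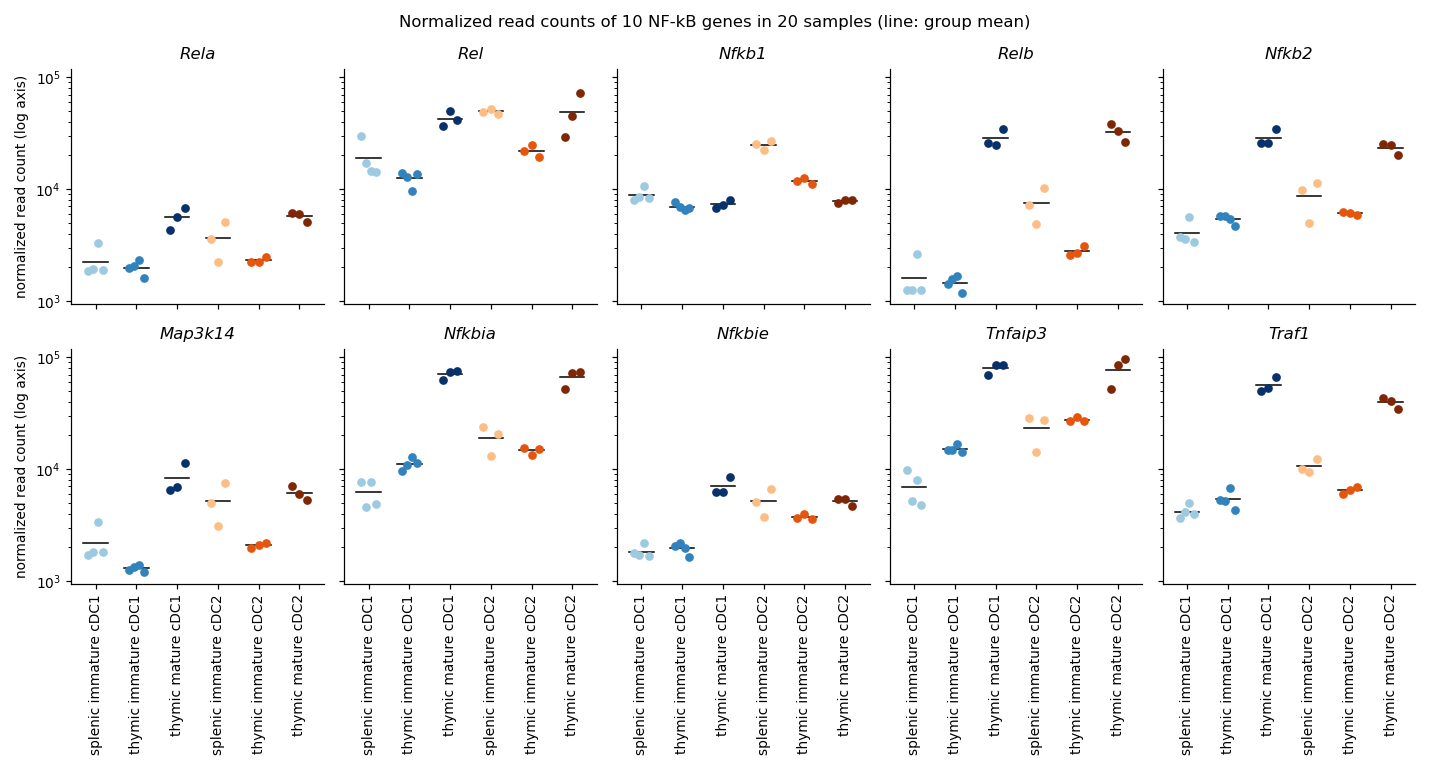
Normalized read count (log axis) of each of the 10 genes in the 20 samples, 1 point per sample, with the group mean as a line. Relb lies between 1180 and 1662 in immature thymic cDC1 and between 25001 and 34165 in mature thymic cDC1, whereas Nfkb1 stays between 6518 and 7952 in both.

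Among the canonical subunits, Rel (the c-REL subunit, ENSMUSG00000020275) had the highest level per kb of exon in each of the 6 groups, and was low in the cDC1 groups before maturation. Its normalized read counts were 29651, 17093, 14570 and 14215 in splenic cDC1 and 14019, 12765, 9592 and 13582 in immature thymic cDC1. In the cDC2 they were 49263, 51996 and 47338 in the spleen and 21688, 24609 and 19330 in the immature thymus. Thus immature thymic cDC2 lay below splenic cDC2 in each sample, and replicate 1 of splenic cDC1 stood above the rest of its group. Mature cDC1 had 36833, 50010 and 41335, and mature cDC2 29510, 44855 and 71672, the widest spread of any group for this gene. The 3 highest groups, mature cDC1, mature cDC2 and splenic cDC2, overlapped, and the means of the 6 groups spanned 3.97-fold.

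Nfkb1, which encodes p105 and p50 (ENSMUSG00000028163), was ordered differently from the other genes. Splenic cDC2 had 25095, 22279 and 27121, more than any other group. Immature thymic cDC2 followed with 11874, 12491 and 11008. The remaining groups lay lower, with 8005, 8537, 10574 and 8315 in splenic cDC1 and 7602, 6859, 6518 and 6845 in immature thymic cDC1. Mature cells were at that low level too, with 6782, 7225 and 7952 in cDC1 and 7525, 8030 and 7909 in cDC2. The 4 lowest groups overlapped with their neighbours in order, and neither of the 2 highest overlapped with the next. Across the 20 samples, the Pearson correlation of log2 levels of Nfkb1 with Traf1 was -0.14 and with Nfkb2 -0.14, whereas Relb and Nfkb2 had 0.97 (n = 20, samples sharing group structure, a description only).

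Rela, the RELA (p65) subunit (ENSMUSG00000024927), varied least between its highest and lowest group means, 2.89-fold. It ranged from 1613 to 2308 in immature thymic cDC1, 1838 to 3290 in splenic cDC1, 2219 to 2474 in immature thymic cDC2 and 2239 to 5079 in splenic cDC2. Mature cDC1 reached 4326 to 6805 and mature cDC2 5080 to 6114. Each group overlapped with the next in order.

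Relb, the partner of p52 (ENSMUSG00000002983), spanned the widest range, 22.3-fold between the highest and lowest group means. It stood at 1247, 1258, 2619 and 1247 in splenic cDC1 and at 1403, 1587, 1662 and 1180 in immature thymic cDC1. In cDC2 the values were 7190, 4893 and 10274 in the spleen and 2593, 2699 and 3122 in the immature thymus. Splenic cDC2 thus exceeded each other immature sample, and replicate 3 was the highest of both splenic groups. Mature cDC1 had 25974, 25001 and 34165 and mature cDC2 37941, 33229 and 26545. These 2 groups overlapped and lay above all immature samples.

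Nfkb2, which encodes p100 and p52 (ENSMUSG00000025225), had 3768, 3575, 5610 and 3371 in splenic cDC1 and 5775, 5800, 5410 and 4657 in immature thymic cDC1. Splenic cDC2 had 9745, 4930 and 11266, and immature thymic cDC2 6223, 6152 and 5911. The low splenic replicate 2 kept splenic and thymic cDC2 overlapping. Mature cDC1 had 26018, 25987 and 34485 and mature cDC2 25197, 24817 and 20261, so that each mature cDC1 sample was above each mature cDC2 sample. In the annotation, 11.6% of the Nfkb2 exon bases overlap a non-coding RNA on the opposite strand and 6.52% overlap Psd, also opposite, which had a mean of 7.28. The strand setting of the counting is not given in the sources used here.

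Map3k14, encoding NIK (ENSMUSG00000020941), ranged from 1207 to 1395 in immature thymic cDC1, 1982 to 2178 in immature thymic cDC2 and 1715 to 3339 in splenic cDC1. In splenic cDC2 it was 3077 to 7510. Mature cDC2 had 5293 to 7118 and mature cDC1 6531 to 11351, and splenic cDC2 overlapped with mature cDC2. A transcript on the same strand, 1700028N14Rik, shares 2.06% of its exon bases and had a mean of 22.9.

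Of the 10 genes, Nfkbia, encoding IκBα (ENSMUSG00000021025), had the highest mean level per kb of exon in each of the 6 groups. It had normalized read counts of 7666, 4583, 7737 and 4855 in splenic cDC1 and 9535, 10774, 12711 and 11435 in immature thymic cDC1. In cDC2 it had 24018, 13010 and 20424 in the spleen and 15584, 13446 and 15243 in the immature thymus. The 2 cDC2 groups overlapped, whereas the 2 cDC1 groups did not. Mature cDC1 had 62880, 74420 and 76013 and mature cDC2 51476, 72726 and 73993. Per kb of exon, the mature means were 44164 in cDC1 and 41034 in cDC2.

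Tnfaip3, encoding the ubiquitin-editing enzyme A20 (ENSMUSG00000019850), followed Nfkbia closely (Pearson correlation of log2 levels 0.98, n = 20, a description only). Its counts were 9885, 5232, 7965 and 4760 in splenic cDC1 and 14707, 14900, 16714 and 14336 in immature thymic cDC1. Splenic cDC2 had 28544, 14272 and 27652 and immature thymic cDC2 26834, 29198 and 27128. Replicate 2 of splenic cDC2 was thus low for Tnfaip3, and it was the lowest of its group for each of the 10 genes but Rel. Mature cDC1 had 68912, 84702 and 85920 and mature cDC2 51896, 84428 and 95930, and the 2 groups overlapped.

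Traf1, an adaptor of TNF receptors (ENSMUSG00000026875), ranged from 3643 to 4975 in splenic cDC1, 4341 to 6757 in immature thymic cDC1 and 5938 to 6969 in immature thymic cDC2. Splenic cDC2 had 9468 to 12365. Mature cDC2, with 34592 to 42791, lay below mature cDC1, with 49833 to 66218. Nfkbie, encoding IκBε (ENSMUSG00000023947), was between 1629 and 2203 in both immature cDC1 groups, 3601 to 3989 in immature thymic cDC2 and 3702 to 6595 in splenic cDC2. Mature cDC2, with 4645 to 5445, overlapped with splenic cDC2. Mature cDC1, with 6260 to 8585, was above mature cDC2 in each sample.

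The first comparison asked how the 10 genes differed between mature and immature thymic cDCs. In cDC1, 9 of the 10 genes were higher in the mature cells and Nfkb1 was not called. In cDC2, 8 were higher, and Nfkb1 and Nfkbie were not called. To be called, a gene needed an adjusted p under 0.1 (limma, Benjamini-Hochberg) and a log2 fold change that exceeded 1 in size. Of all genes tested, 21.3% were called higher and 24.5% lower in mature cDC1, and 18.6% higher and 17.0% lower in mature cDC2. The median log2 fold change of the 10 genes was 2.40 in cDC1 and 1.49 in cDC2, beside -0.04 and 0.04 over all genes tested.

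By size, Relb led in both subsets. Its log2 fold change on the log2(value + 1) scale was 4.28 ± 0.25 (SE; adjusted p = 1.20e-11), or 19.4-fold, in cDC1, and 3.53 ± 0.27 (adjusted p = 1.49e-09), or 11.5-fold, in cDC2. Traf1 followed, at 3.40 ± 0.16 (10.5-fold) in cDC1 and 2.61 ± 0.17 (6.09-fold) in cDC2. The other non-canonical genes rose less than Relb. Nfkb2 rose by 2.41 ± 0.22 in cDC1 and 1.94 ± 0.24 in cDC2. Map3k14 rose by 2.63 ± 0.26 and 1.54 ± 0.27. Among the inhibitors, Nfkbia rose by 2.68 ± 0.22 (6.41-fold) and 2.15 ± 0.24 (4.43-fold), and Tnfaip3 by 2.39 ± 0.26 and 1.44 ± 0.28. The groups compared did not overlap for any of these 6 genes in either subset, but overlap was not counted over all genes.

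The canonical subunits rose less or not at all. Rela rose by 1.49 ± 0.24 (2.80-fold, adjusted p = 1.64e-05) in cDC1 and 1.3 ± 0.25 (2.47-fold, adjusted p = 2.31e-04) in cDC2. Rel rose by 1.78 ± 0.26 in cDC1 and by 1.07 ± 0.28 in cDC2 (adjusted p = 0.00392), and the latter call was lost without replicate 3 of immature cDC2 (log2 fold change 0.98) or replicate 3 of mature cDC2 (0.74), where 7 genes were called. Nfkb1 had a log2 fold change of 0.07 ± 0.12 (adjusted p = 0.644) in cDC1. In cDC2 its log2 fold change was -0.59 ± 0.13 (adjusted p = 0.00102), 1.51-fold lower in mature cells, short of the fold threshold. Nfkbie rose by 1.83 ± 0.17 in cDC1 and had 0.46 ± 0.18 (adjusted p = 0.046) in cDC2, also below the fold threshold. Among lane 8 libraries alone the counts were again 9 and 8, and no alternative fit turned the sign of any of the 10 genes in these 2 comparisons.

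Some markers moved with maturation, and their part in these differences was not tested. The 4 general dendritic cell markers summed to 192141 to 318733 in immature and 50265 to 102598 in mature thymic cDC1, and to 237110 to 287228 and 72104 to 112748 in cDC2. H2-Ab1 made up most of these sums (means 210979 and 34109 in cDC1), and it and Itgax were called lower in both subsets. The other markers, Flt3 (17668 and 29330 in cDC1, 12479 and 17522 in cDC2) and Zbtb46 (3903 and 5229, 3867 and 4650), had higher means in mature cells and were not called. The summed level of 8 T cell and thymocyte markers was 242 to 302 in immature and 1525 to 2286 in mature thymic cDC1, with the CD3 genes Cd3e, Cd3d and Cd3g at means of 52.2, 99.9 and 115 in mature cDC1. In cDC2 the same 8 markers summed to 753 to 1064 in immature and 1251 to 2588 in mature cells. The 6 markers of thymic epithelium summed to 597 to 711 in immature and 1805 to 2579 in mature cDC1, and to 3507 to 3877 and 3817 to 4878 in cDC2. Epcam made up most of the immature sums (means 581 in cDC1 and 3516 in cDC2) and was lower in mature cells (158 and 385). Aire made up most of the mature sums (1793 and 3408) and had means of 10.3 and 43.4 in immature cells. The 5 markers of plasmacytoid dendritic cells summed to 10538 to 12121 in immature and 6025 to 7990 in mature cDC2, and overlapped in cDC1. The 6 macrophage markers measured summed to 12772 and 13682 in replicates 1 and 2 of mature cDC2 but to 1659 in replicate 3. The 9 genes of the early response to tissue digestion, among them Fos, Jun and Egr1, summed to 227736 to 305896 in immature and 118186 to 222028 in mature thymic cDC1. Of these genes only Fos was called there (means 69284 in immature and 19975 in mature cells), and only Dusp1 had a higher mean in mature cells (17524 and 20992). In cDC2 the sums of the 9 genes overlapped, at 156232 to 226713 and 133139 to 196967, although single genes moved in opposite directions. Dusp1 was called higher in mature cDC2 (means 10429 in immature and 22286 in mature cells). Egr1 (14417 and 5977) and Ier2 (4995 and 2454) were called lower.

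**Figure D2:**
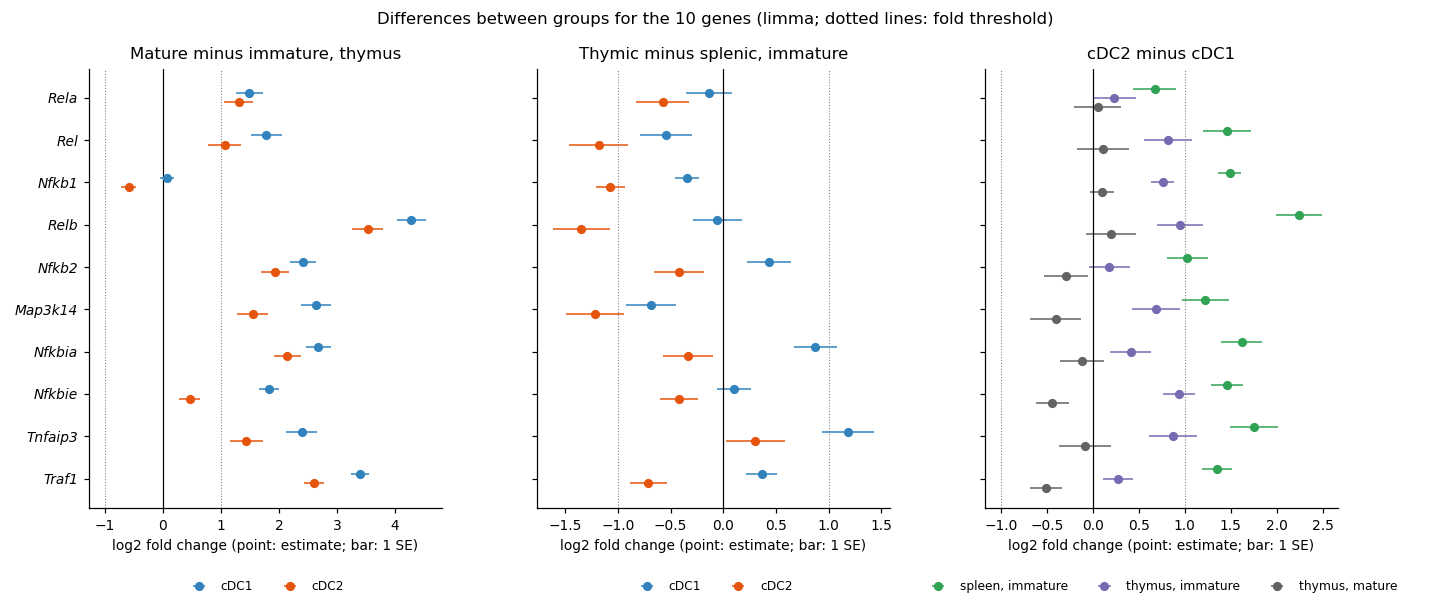
Log2 fold change (limma, x axis) of each of the 10 genes with 1 SE, for mature minus immature (left), thymic minus splenic (middle) and cDC2 minus cDC1 (right), with dotted lines at the fold threshold of 1. In the left panel Relb reaches 4.28 in cDC1 and 3.53 in cDC2 while Nfkb1 lies at 0.07 and -0.59, and in the right panel the mature groups lie between -0.51 and 0.20.

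The log2 fold change with maturation was lower in cDC2 than in cDC1 for all 10 genes by estimate, as a smaller rise for 9 of them and, for Nfkb1, as a negative value in cDC2 beside one near 0 in cDC1. This difference was tested as an interaction. Nfkbie (difference of log2 fold changes -1.38 ± 0.25, adjusted p = 0.000983) and Map3k14 (-1.09 ± 0.38, adjusted p = 0.0626) were called, 2 of 10, beside 5.25% of all genes called in this direction. Without replicate 3 of mature cDC2, 3 genes were called, with Tnfaip3 (-1.14) and Rel (-1.04) in place of Map3k14. The Map3k14 call was lost without replicate 3 of mature cDC1 (-0.84), replicate 2 or 3 of immature cDC2 (-1.09 and -1.06), or replicate 2 or 3 of mature cDC2 (-1.07 and -0.99). Traf1 (-0.79, adjusted p = 0.033) and Nfkb1 (-0.66, adjusted p = 0.0195) passed the adjusted p but not the fold threshold. For the other 6 genes the interaction did not pass the test, and for Relb it was -0.75 ± 0.37 (adjusted p = 0.195).

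A second comparison set immature thymic against splenic cDCs. In cDC1 only Tnfaip3 was called, 1.19 ± 0.25 (2.27-fold) higher in the thymus (adjusted p = 0.00192), beside 4.26% of all genes called higher and 4.52% lower. Nfkbia was 0.87 ± 0.21 higher (1.83-fold, adjusted p = 0.00558), below the fold threshold. Its 4 thymic samples had 9535 to 12711 and the splenic ones 4583 to 7737. Nfkbie, the other IκB gene of the set, had 0.10 ± 0.16 (adjusted p = 0.81), and its groups overlapped. Nfkb1 (-0.34 ± 0.12, adjusted p = 0.0586) and Map3k14 (-0.69 ± 0.24, adjusted p = 0.0678) passed the adjusted p in the opposite direction and fell short of the fold threshold. For Rela and Relb the estimates, -0.14 ± 0.22 and -0.06 ± 0.23, changed sign when replicate 3 of splenic cDC1 was left out (0.062 and 0.21), and Tnfaip3 remained the only gene called. Beside these cDC1 differences, the thymic epithelium markers summed to 57.2 to 79.3 in splenic and 597 to 711 in immature thymic cDC1, the 6 B cell markers to 568 to 984 and 106 to 139, the plasmacytoid dendritic cell markers to 3350 to 3874 and 5174 to 5962, and the digestion-response genes to 160366 to 242041 and 227736 to 305896. Epcam made up most of the epithelial sums (means 54.8 and 581). The part of these markers in the results was not tested.

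In cDC2 the thymic cells had less of 4 genes, Relb (-1.35 ± 0.27, adjusted p = 0.00106), Map3k14 (-1.22 ± 0.27, adjusted p = 0.00295), Rel (-1.18 ± 0.28, adjusted p = 0.00473) and Nfkb1 (-1.07 ± 0.13, adjusted p = 6.15e-06), beside 5.87% of all genes called lower and 8.30% called higher. None of the 10 genes was called higher. Of these 4, 2 belong to each arm. Traf1 was lower by estimate as well (-0.71 ± 0.17, adjusted p = 0.00562), whereas Nfkb2 had -0.42 ± 0.24 (adjusted p = 0.246) and Tnfaip3 0.31 ± 0.28 (adjusted p = 0.507). The Map3k14 call was lost without replicate 3 of splenic cDC2 (-0.91, adjusted p = 0.0273). With lane 8 libraries alone, where splenic cDC2 had 1 sample whose spread was taken from the other groups, Rel (-1.12, adjusted p = 0.117) was not called and Rela (-1.11, adjusted p = 0.0523) was.

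Beside these cDC2 differences, the 6 macrophage markers measured summed to 906 to 1452 in splenic and 4854 to 7957 in immature thymic cDC2, and the T cell and thymocyte markers to 4600 to 5530 and 753 to 1064, of which Cd4 made up most in the spleen (mean 5131), while Cd3e was at a mean of 5.58 there. The 6 markers of thymic epithelium summed to 96.1 to 156 in splenic and 3507 to 3877 in immature thymic cDC2, and the 5 markers of plasmacytoid dendritic cells to 3269 to 3960 and 10538 to 12121. Epcam made up most of the epithelial sums (means 108 and 3516). The digestion-response genes summed to 319177, 195106 and 343375 in splenic cDC2 replicates 1 to 3, and to 156232 to 226713 in immature thymic cDC2. Replicate 2 of splenic cDC2 was thus low in this sum, and it was the lowest of its group for each of the 10 genes but Rel, for which it was the highest. Without it the same number of genes, 4, was called, and 9 passed the adjusted p, beside 5 in the main fit. The part of these markers and of this sample's shift in the results was not tested.

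The tissue difference was lower in cDC2 than in cDC1 by estimate for all 10 genes, and 3 of them, Relb (-1.29 ± 0.36, adjusted p = 0.039), Nfkbia (-1.21 ± 0.31, adjusted p = 0.0271) and Traf1 (-1.07 ± 0.23, adjusted p = 0.00684), were called, beside 1.71% of all genes called in this direction. Nfkb1 passed the adjusted p alone (-0.73 ± 0.18, adjusted p = 0.0169). None of the 3 was called with lane 8 libraries alone (-1.52, -1.43 and -1.15, adjusted p of 0.149 or more). The Relb call was lost without replicate 3 of splenic cDC2 (-1.03) or replicate 1 of immature thymic cDC2 (-1.24), that of Nfkbia without replicate 1 of splenic cDC2 (-1.02), and that of Traf1 without replicate 3 of either splenic cDC2 or immature thymic cDC1 (-0.96 for both). The number called ranged from 1 without replicate 3 of splenic cDC2 to 5 without replicate 2 of that group, where Nfkb2 and Tnfaip3 were added.

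The third comparison set cDC2 against cDC1. In the spleen 9 of the 10 genes were called higher in cDC2 and none lower, beside 9.93% of all genes called higher and 6.70% lower. Relb differed most, by 2.24 ± 0.25 (4.73-fold, adjusted p = 7.87e-07), and Tnfaip3 by 1.75 ± 0.26 (3.37-fold) and Nfkbia by 1.62 ± 0.22 (3.08-fold). The canonical Nfkb1 (1.49 ± 0.12, adjusted p = 1.22e-08) and Rel (1.46 ± 0.26) were higher by about as much as Nfkbie (1.46 ± 0.17) and Traf1 (1.35 ± 0.16). Map3k14 (1.22 ± 0.26) and Nfkb2 (1.03 ± 0.22) were called although their groups overlapped, and Rela (0.67 ± 0.24, adjusted p = 0.0423) fell short of the fold threshold.

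In this splenic comparison the smallest calls depended on single samples. The Nfkb2 call was lost without replicate 2 or the averaged sample of splenic cDC1 (0.97 and 0.95) and without replicate 1 or 3 of splenic cDC2 (0.90 and 0.79), and also with 1 sample per library number (0.97). Without replicate 3 of splenic cDC1 or replicate 2 of splenic cDC2, 9 genes were called. Map3k14 was lost without replicate 3 of splenic cDC2 (0.91). With both replicates 3 left out, which share the library number 9, 8 genes were called and Relb differed by 2.24. The digestion-response sum was 160366 to 242041 in splenic cDC1 and 195106 to 343375 in splenic cDC2. The macrophage markers measured summed to 30.9 to 232 in splenic cDC1 and 906 to 1452 in splenic cDC2, the T cell and thymocyte markers to 535 to 857 and 4600 to 5530, and the 4 NK cell markers to 0 to 2.06 and 111 to 181. The part of these in the results was not tested.

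In the immature thymus none of the 10 genes was called by limma, edgeR or DESeq2, beside 16.4% of all genes called in either direction. All 10 estimates were above 0, 6 at an unadjusted p below 0.05, and the same 6 passed the adjusted p without the fold threshold, beside 15.5% of all genes higher by that rule. They were Relb (0.95 ± 0.25, adjusted p = 0.00829), Nfkbie (0.94 ± 0.17), Tnfaip3 (0.87 ± 0.26), Rel (0.82 ± 0.26), Nfkb1 (0.76 ± 0.12) and Map3k14 (0.69 ± 0.26). Relb passed the fold threshold without replicate 3 of cDC1 (1.02) or replicate 1 of cDC2 (1.01). The samples of the 2 groups overlapped for Rela and Traf1. Nfkb2 did not overlap although its estimate was 0.18 ± 0.22 (adjusted p = 0.687), and overlap was not counted over all genes.

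In the mature thymus none was called either, by limma, edgeR or DESeq2, beside 18.9% of all genes. Estimates ran from -0.51 to 0.20, with 2 genes at an unadjusted p below 0.05, Traf1 (-0.51 ± 0.17, adjusted p = 0.0385) and Nfkbie (-0.44 ± 0.18, adjusted p = 0.0917), both lower in cDC2. Without replicate 3 of mature cDC2 neither passed the adjusted p. For Relb the difference was 0.20 ± 0.27, with a 95% interval (from the SE, normal) of -0.33 to 0.73. For Rel it was 0.11 ± 0.28, with an interval of -0.45 to 0.66, and this estimate was -0.22 without replicate 3 of mature cDC2. Both intervals hold differences in either direction.

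**Figure D3:**
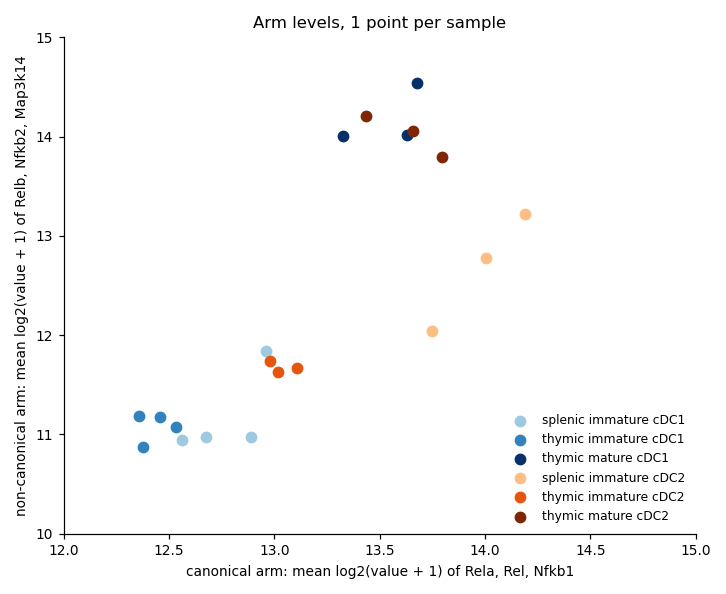
Mean log2(value + 1) of the canonical genes (x axis) and of the non-canonical genes (y axis), 1 point per sample, coloured by group. Mature samples lie between 13.79 and 14.53 on the y axis, and splenic cDC2 between 13.75 and 14.19 on the x axis and 12.04 and 13.22 on the y axis.

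To contrast the arms, the mean log2(value + 1) of each arm was taken per sample, as a description with no test, since the genes had been picked with results known. Relative to splenic cDC1, the canonical mean was shifted by -0.34 in immature thymic cDC1, 0.77 in mature cDC1, 1.21 in splenic cDC2, 0.26 in immature thymic cDC2 and 0.86 in mature cDC2. The non-canonical mean was shifted by -0.10, 3.00, 1.5, 0.50 and 2.84 in the same groups. The highest canonical level was thus in splenic cDC2 (13.98 ± 0.22, SD, n = 3) and the highest non-canonical levels in mature cDC1 (14.18 ± 0.30) and mature cDC2 (14.02 ± 0.21). The within-sample difference, non-canonical minus canonical, contains the gene lengths and is read only between groups. It lay between -1.92 and -0.97 in the 4 immature groups, and between 0.38 and 0.86 in mature cDC1 and -0.01 and 0.78 in mature cDC2. Immature cells of both subsets and tissues overlapped in this difference, and neither mature group overlapped with them. Relative to splenic cDC1, the shift of this difference was 2.23 in mature cDC1 and 1.98 in mature cDC2, and 2.24 and 2.11 on leaving out Map3k14 and Nfkb1. In immature thymic cDC1 and cDC2 it was 0.24 in both, and 0.53 and 0.57 on leaving out those 2 genes.

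The partners can also be set against each other within a sample, as a ratio of values per kb of annotated exon. The Nfkb2 to Nfkb1 ratio was 1.2 ± 0.15 (SD, n = 4) in splenic and 2.05 ± 0.20 (n = 4) in immature thymic cDC1, and 10.3 ± 0.99 (n = 3) in mature cDC1. In cDC2 it was 0.90 ± 0.28 in the spleen, 1.36 ± 0.06 in the immature thymus and 7.89 ± 1.06 in mature cells. The lowest mature ratio was 6.74 and the highest immature one 2.23. For Relb over Rela the ratio was 0.55 ± 0.05 and 0.58 ± 0.02 in splenic and immature thymic cDC1, 1.64 ± 0.08 in splenic cDC2 and 0.96 ± 0.04 in immature thymic cDC2, and 4.07 ± 0.63 and 4.48 ± 0.39 in mature cDC1 and cDC2. The SD of this ratio was small in splenic cDC2 although both genes varied there by over 2-fold between samples. Nfkbia over Nfkbie was 5.86 to 8.88 in splenic and 18.2 to 30.1 in mature cDC2, so the inhibitor transcripts did not keep one proportion.

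**Figure D4:**
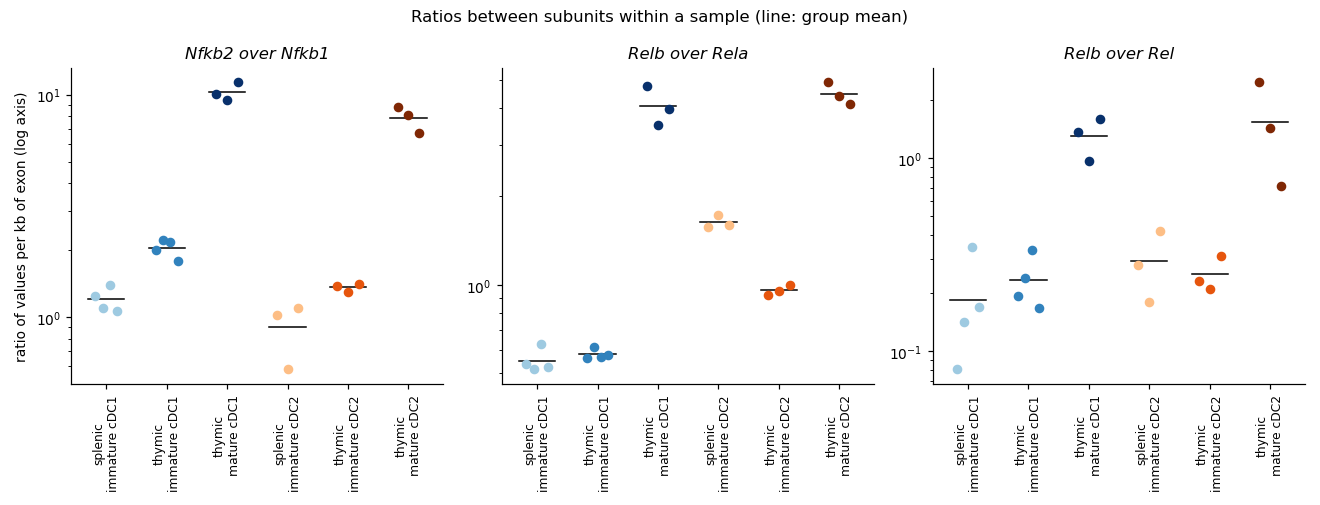
Ratios of values per kb of exon within a sample (log axis) for Nfkb2 over Nfkb1, Relb over Rela and Relb over Rel, 1 point per sample with the group mean as a line. The Nfkb2 to Nfkb1 ratio lies between 6.74 and 11.4 in mature cells and between 0.58 and 2.23 in immature cells.

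Other genes with a similar pattern were ranked by Pearson correlation of log2(value + 1) over the 20 samples, among 10224 genes with a mean of at least 100, as a description. For Relb these were Foxp4 (0.99), Nuak1 (0.98), Ksr1 (0.98), Sdhaf1 (0.98) and Traf2 (0.98). Foxp4, a forkhead transcription factor, averaged 479 in immature thymic and 11001 in mature cDC1. For Rel they were Ifrd1 (0.97), Rest (0.96), Fam107b (0.95), Zbtb10 (0.95) and Malt1 (0.94), the last a protease of the canonical pathway. For Nfkbia they were Ccr7 (0.98), Gadd45b (0.98), Tnfaip3 (0.98), Gem (0.97) and Zfp467 (0.97), so that a member of the set and the sorting receptor were among its 5 closest genes.

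The wider pathway was counted from lists of other NF-κB genes. Of 16 receptors and ligands tested, 11 were higher and 4 lower in mature than in immature thymic cDC1 (median log2 fold change 2.64). In cDC2, 10 were higher and 3 lower (median 1.86). Of all genes tested, 21.3% were called higher and 24.5% lower in cDC1, and 18.6% and 17.0% in cDC2. The largest changes in cDC1 were those of Tnfrsf4 (OX40), which rose by 8.01 in cDC1 and 5.65 in cDC2, Tnfrsf9 (4-1BB) by 7.25 and 5.34, and the ligand Lta by 6.43 and 3.86. Chosen for their role after their values were seen, receptors that feed the non-canonical arm did not move alike. Cd40 rose by 3.12 and 2.29 and Tnfrsf11a (RANK) by 3.78 and 3.47, whereas Tnfrsf13c (the BAFF receptor) fell by 4.01 and 5.79 on the log2 scale and Ltbr had -0.63 and -0.78 and was not called.

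Of 21 adaptors tested, 8 were higher and 3 lower in mature cDC1 (median 0.66), and 6 higher and 3 lower in cDC2 (median 0.22). Beside these stand 21.3% of all genes called higher and 24.5% lower in cDC1, and 18.6% and 17.0% in cDC2. Birc2 (cIAP1) rose by 4.20 in cDC1 and 3.64 in cDC2 and Irak3, an inhibitor of Toll-like receptor signalling, by 3.19 and 1.09. Malt1 rose by 2.69 in cDC1 and had 0.69 in cDC2, not called. With Birc2, the other genes whose products hold NIK in check, named for that role after their values were seen, were higher in the same cells as Map3k14. Birc3 (cIAP2) rose by 2.36 and 1.59, Traf3 by 2.48 and 1.97 and Traf2 by 1.99 and 1.52. Of 10 kinases and kinase partners, 5 were higher and 1 lower in cDC1 (median 1.01). In cDC2, 2 were higher and 0 lower (median 0.67). The partners, Ikbkg, Tab1, Tab2 and Tab3, are not kinases themselves. Among them, Tab3 was called higher and Tab1 lower in cDC1. The 2 called higher in cDC2 lay near the share of all genes. Ikbke (IKKε) rose by 5.41 and 2.65 and Ikbkb (IKKβ) by 2.47 and 1.44. Of the other 2 parts of the IκB kinase complex, Chuk (IKKα) had 0.33 and Ikbkg (NEMO) 0.53 in cDC1, neither of them called.

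The next list held 5 genes, other IκB family genes and Nkrf, which encodes a repressor outside that family. Of these 5, 3 were higher and 1 lower in mature cDC1 (median 2.04). In cDC2, 1 was higher and 1 lower (median 0.43). For this and the next 2 lists, the shares of all genes were 21.3% higher and 24.5% lower in cDC1, and 18.6% and 17.0% in cDC2. Nkrf, the only gene of this list called lower in either subset, fell by 2.56 and 1.86. Bcl3, a nuclear IκB protein, rose by 2.27 in cDC1 and had 0.71 in cDC2, not called. Of 14 other inhibitors and deubiquitinases measured, 5 were higher and 2 lower in cDC1 and 2 higher and 2 lower in cDC2 (medians 0.66 and 0.12). In cDC2 the counts called in either direction, from the list with Nkrf and from that of inhibitors, lay near the shares of all genes. Tnip3, whose product binds A20, rose by 4.10 in cDC1 and had -0.59 in cDC2, not called, and Tnfaip8l2 fell by 4.02 and 2.27. Of 27 reported NF-κB target genes tested, 19 were higher and 2 lower in cDC1, and 18 higher and 3 lower in cDC2 (medians 2.36 and 1.82). The chemokine gene Ccl5 rose by 10.03 and 7.42, Fscn1 by 8.93 and 5.26, Ccr7, by which the cells were sorted, by 7.29 and 4.88, and Ccl22 by 6.35 and 3.63. The 2 genes that were lower in both subsets, Cxcl9 and the cytokine gene Il1b, fell by 3.88 and 3.28 in cDC1. Birc3 is counted in this list and among the adaptors.

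**Figure D5:**
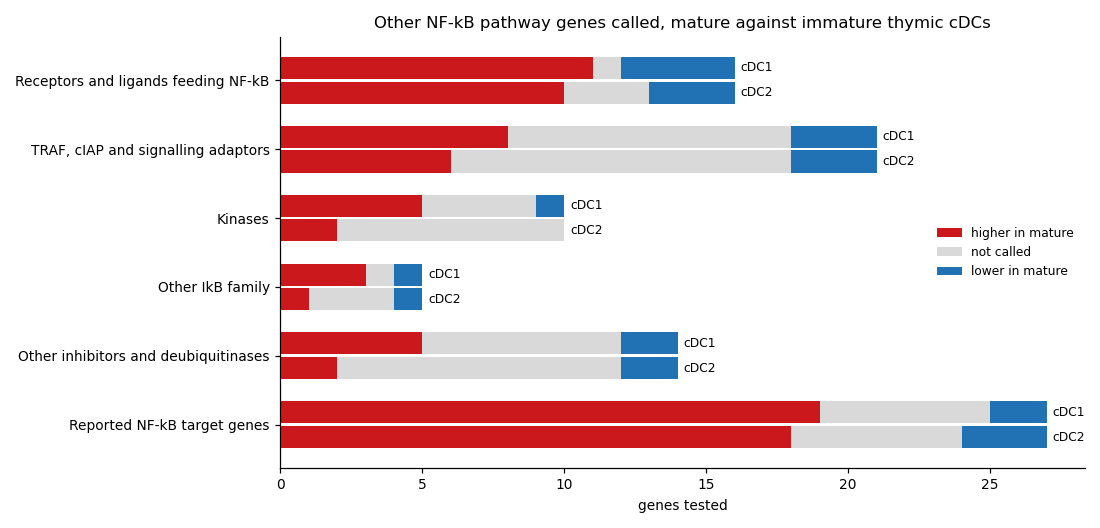
Number of genes tested (x axis) in 6 lists of other NF-κB pathway genes, split into those called higher, called lower and not called in mature against immature thymic cDC1 (upper bar) and cDC2 (lower bar). Of the 27 target genes tested, 19 and 18 were higher in mature cells, and of the 10 kinases and kinase partners, 5 and 2. The list labelled Kinases includes those partners, and the list labelled Other IkB family includes Nkrf, which is not of that family. Of all genes tested, 21.3% were called higher in mature cDC1 and 18.6% in mature cDC2.

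Between thymic and splenic cDC2, 2 receptors and ligands were higher and 3 lower, no kinase or other IκB gene was called, 3 other inhibitors were higher and 1 lower, and 8 target genes were higher and 2 lower, beside 8.30% of all genes called higher and 5.87% lower. This is the comparison in which Relb, Rel, Nfkb1 and Map3k14 were lower. Ccl17 (10.06) and Ccl22 (6.24) led the target genes that were higher in the thymus. Between splenic cDC2 and cDC1, 5 receptors and ligands, 7 adaptors, 2 kinases and 3 other IκB genes were higher in cDC2 and none of these 4 lists had a gene called lower. Of the other inhibitors and deubiquitinases, 4 were higher and 2 lower, and of the target genes 9 were higher and 3 lower, beside 9.93% of all genes called higher and 6.70% lower. The largest of these were Irak3 (4.36), Ripk2 (2.00) and Malt1 (1.87) among the adaptors, Ikbke (2.56) among the kinases, and Bcl3 (2.37), Nfkbiz (1.77) and Nfkbid (1.37) among the IκB genes.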

How the data were processed

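Per the labels and the study's methods, the authors trimmed the reads (Cutadapt), mapped them to mm10 (STAR 2.6) and tallied them over Ensembl genes (HTSeq-count) before scaling (DESeq2 1.24.0). Each deposited value is a signal, namely a read count over a size factor shared by all genes of its library, and 100% of the values returned whole reads within a tolerance of 0.01. The annotation release and the strand setting are not given in the sources used here. Values were taken to log2(value + 1) and fitted with limma 3.58.1 (R 4.3.3, intensity trend), with the 6 groups in 1 model, for 14970 genes that reached 10 in 3 or more samples. Adjusted p values are limma's, by the Benjamini-Hochberg method over all genes tested, unless another tool is named. Alternatives were edgeR 4.0.16 and DESeq2 1.42.0 on the recovered reads, other pseudocounts, filters, fold thresholds, scalings and sample sets, a lane term, a replicate block and the omission of each sample. Leaving out both libraries numbered 9 was added after seeing the data. The fits were tested on simulated data. Exon lengths and overlaps came from GENCODE M21, and values per kb were divided by merged exon length. Named were all 10 genes, 2 to 4 genes of each list by size of change, and the 5 genes closest to Relb, Rel and Nfkbia. The 10 genes and the lists were chosen with earlier results of these data known, so that counts over them are descriptions. Depth bears on counting error only. The values of some genes are not reported here.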

Additional observations from a re-analysis of the deposited data

Results flagged for a closer look

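In all, 3 values stood far from the rest of their group of 4 samples, each in replicate 3 of splenic cDC1. Rela was 3290 there, against 1838 to 1927 in the other 3 samples, Relb was 2619, against 1247 to 1258, and Map3k14 was 3339, against 1715 to 1813. The rule that flags such a gap does so by chance in about 1 in 20 groups. The 20 groups of 4 examined were the 10 genes in splenic and immature thymic cDC1, so they shared samples and were not independent. Replicate 3 of splenic cDC1 also had the highest Nfkb2, Nfkb1, Nfkbie and Traf1 of its group and the highest sum of digestion-response genes (242041).

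The response to maturation differed between cDC1 and cDC2 by the interaction test for Nfkbie (-1.38), Map3k14 (-1.09), Traf1 (-0.79) and Nfkb1 (-0.66), with a lower log2 fold change in cDC2 (for Nfkb1 a negative one beside one near 0 in cDC1) and the last 2 below the fold threshold. The tissue difference was lower in cDC2 for Relb (-1.29), Nfkbia (-1.21), Traf1 (-1.07) and Nfkb1 (-0.73), with the last below the fold threshold.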

How the results depend on the processing

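The counts of the 10 genes called kept within 1.5 times of the reported ones under edgeR, DESeq2, the other pseudocounts, filters and scaling, and a lane covariate. Without a fold threshold the counts became 4 (thymic against splenic cDC1, from 1), 6 (cDC2 against cDC1, immature thymus, from 0), 2 (mature thymus, from 0) and 4 (maturation interaction, from 2). With a log2 threshold of 2 they became 3 (maturation in cDC2, from 8), 1 (cDC2 against cDC1 in the spleen, from 9), and 0 for thymic against splenic cDC1 and cDC2 and both interactions. With lane 8 libraries only the tissue interaction had 0 calls, in a fit on fewer samples. Leaving out each sample gave 9 and 7 to 8 for maturation in cDC1 and cDC2, 1 and 3 to 4 for the tissue comparisons, 7 to 9 in the spleen, 0 to 1 in the immature and 0 in the mature thymus, 1 to 3 for the maturation interaction and 1 to 5 for the tissue interaction. The sign turned only in uncalled differences. On leaving out single samples, Rela and Relb between thymic and splenic cDC1 ran from -0.22 to 0.062 and -0.15 to 0.21, Tnfaip3 between thymic and splenic cDC2 from -0.020 to 0.48, and between mature cDC2 and cDC1 Rela from -0.12 to 0.20, Rel from -0.22 to 0.42, Nfkbia from -0.21 to 0.050 and Tnfaip3 from -0.26 to 0.18. With both libraries numbered 9 left out, Rela and Relb between thymic and splenic cDC1 were 0.062 and 0.21. Without Map3k14 and Nfkb1, the arm difference relative to splenic cDC1 moved from 0.24 to 0.53 in immature thymic cDC1 and to 0.57 in immature thymic cDC2.

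In the spleen and the immature thymus it was not settled whether the library numbers paired the samples. Same-numbered cDC1 and cDC2 samples had deviations correlated at 0.01, 0.25, 0.46 and -0.08 in the spleen and -0.15, 0.26, 0.28 and -0.08 in the thymus. Differently numbered ones ran from -0.49 to 0.24 in the spleen and from -0.22 to 0.26 in the thymus. The highest value in each tissue came from a same-numbered pair, but not every sample correlated best with its own number. These few values cannot exclude a pairing of some samples. With the number as a replicate block, 9 of the 10 genes were called in the spleen and 0 in the immature thymus, as without it. The mature groups shared only the number 569 with each other, and mature and immature thymic cDC1 only the number 8, so no blocked fit was made with the mature groups.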
